A study of Mus musculus with 37 samples.

Results

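Heterogeneous nuclear ribonucleoproteins (hnRNPs) are abundant RNA-binding proteins of the nucleus, and 10 of them were followed here: HNRNPC (ENSG00000092199), HNRNPA1 (ENSG00000135486), HNRNPA2B1 (ENSG00000122566), HNRNPK (ENSG00000165119), HNRNPU (ENSG00000153187), HNRNPD (ENSG00000138668), HNRNPH1 (ENSG00000169045), HNRNPF (ENSG00000169813), HNRNPM (ENSG00000099783) and HNRNPL (ENSG00000104824). They are a list of named IDs, chosen by the count of HNRNPC after hypoxia against normoxia in medium, where it was lower, so that contrast is described below without a test. The deposited counts list 60708 IDs, of which 22657 had a count and 5193 passed the filter on low counts. Of the 10 hnRNPs 9 had a count and passed the filter, whereas HNRNPA1 was listed at 0 in all 37 libraries.

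The libraries were 3′ mRNA-seq libraries of splenocytes from wild-type FVB mice. The splenocytes spent 48 h with RAW264.7 cells (a macrophage-like mouse line) or in the medium of such cells, after which Brefeldin A was added. Before that the RAW264.7 cultures had 72 h under 21% oxygen (normoxia) or 1% oxygen (hypoxia), and some received SPP1 (osteopontin, a secreted ligand of integrins and CD44) at 1 µg/mL. The exposure took 3 forms, called medium (the medium of the RAW264.7 cells, 11 libraries), cells (the unwashed RAW264.7 cells, 12 libraries) and washed (the RAW264.7 cells after a media wash, 12 libraries), and 2 libraries are labelled naive. The labels give Brefeldin A as added after the co-culture, and whether the naive splenocytes received it or were cultured as long is not stated, so these cannot be told apart from the exposure in any comparison with naive. Each form had 4 groups (normoxia or hypoxia, without or with SPP1). Of the 13 groups 11 had 3 libraries, and the medium normoxia no-SPP1 group and the naive group had 2. The series text says that experiments were repeated independently but not which replicate came from which mouse or day, so the p-values measure the spread between these libraries.

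The reads of these mouse samples had been aligned to the human genome GRCh38. Each value is therefore the number of mouse reads that matched a human hnRNP gene, and the share of a gene's reads that matched can differ from gene to gene. For that reason no level was compared between genes, and the HNRNPA1 zeros say only that no read was assigned to that ID. Several hnRNPs have processed pseudogenes and close paralogs (HNRNPH1 and HNRNPF among them) between which reads could be split. In the cells and washed libraries RNA of RAW264.7 cells may be included, and in bulk RNA fewer cells of a type and less RNA per cell cannot be told apart. The IDs could not be paired with other symbols, so cell type markers and further hnRNP genes were not analysed here.

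hnRNPs bind nascent pre-mRNA and act in splicing, export, stability and translation. HNRNPC binds uridine-rich tracts and keeps hidden splice sites from being used, HNRNPA1 and HNRNPA2B1 bind splicing silencers, and HNRNPK binds cytosine-rich RNA. HNRNPU ties RNA to chromatin (scaffold attachment factor A), HNRNPD (AUF1) binds AU-rich elements of cytokine and other short-lived mRNAs, HNRNPH1 and HNRNPF bind guanine runs, HNRNPM is a splicing regulator, and HNRNPL binds CA repeats and in lymphocytes represses the variable exons of CD45.

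Promoter sequences are shown for the member called higher than medium in both co-culture forms (HNRNPC) and for the pair with the largest decreases in both (HNRNPU and HNRNPD). They are mouse RefSeq promoters (build GRCm38.p6) that run from 250 bases before to 50 bases after the annotated start, on the gene's strand and 5′ to 3′. Capitals mark CCAAT on either strand (read as ATTGG on the other strand). They also mark the core that hypoxia-inducible factors bind, ACGTG, on either strand (read as CACGT on the other).
Hnrnpc, chr14:52103972-52104271, minus strand: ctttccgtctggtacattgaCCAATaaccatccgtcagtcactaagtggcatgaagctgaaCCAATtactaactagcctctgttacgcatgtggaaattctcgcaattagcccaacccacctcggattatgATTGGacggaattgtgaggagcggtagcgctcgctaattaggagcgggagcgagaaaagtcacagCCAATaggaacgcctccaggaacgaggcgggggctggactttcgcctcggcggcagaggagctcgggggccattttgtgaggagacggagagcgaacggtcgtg
Hnrnpu, chr1:178337766-178338065, minus strand: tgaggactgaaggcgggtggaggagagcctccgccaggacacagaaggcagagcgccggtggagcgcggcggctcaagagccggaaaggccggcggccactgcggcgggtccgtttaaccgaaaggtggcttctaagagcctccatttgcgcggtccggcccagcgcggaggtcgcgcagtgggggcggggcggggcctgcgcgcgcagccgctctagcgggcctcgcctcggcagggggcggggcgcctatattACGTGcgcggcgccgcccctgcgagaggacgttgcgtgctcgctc
Hnrnpd, chr5:99978889-99979188, minus strand: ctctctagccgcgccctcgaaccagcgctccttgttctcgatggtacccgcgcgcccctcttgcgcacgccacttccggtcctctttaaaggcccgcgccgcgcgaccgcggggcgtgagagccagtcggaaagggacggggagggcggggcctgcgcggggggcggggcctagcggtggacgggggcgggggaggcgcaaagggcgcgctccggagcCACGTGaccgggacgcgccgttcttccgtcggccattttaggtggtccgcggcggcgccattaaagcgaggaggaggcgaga

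The Hnrnpc window held 4 matches to CCAAT in either orientation and 0 to ACGTG. The Hnrnpu window held 1 match to ACGTG, and the Hnrnpd window held 2 that overlap by all but the end letters, one on each strand, while neither held CCAAT. Over the 10 mouse genes, all of which matched by symbol, 18 windows were listed, more than 1 each for Hnrnpa2b1, Hnrnph1 and Hnrnpf. CCAAT occurred in 11 of the 18 windows, against 37.4% of all 32817 promoters of the same length, and ACGTG in 7 of the 18, against 19.6% of all. By gene, 7 of the 10 had a window with CCAAT and 6 of the 10 had one with ACGTG. Windows of the same gene can overlap, as for Hnrnpa2b1, so a site may be counted in more than 1 window. These matches describe letters in a window and say nothing of binding.

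Total counts per library ranged from 631574 to 1337314 (median 1063211), at which 3 counts correspond to 2.01 to 4.97 CPM (the usual counts-per-million unit, over library sizes after TMM scaling). HNRNPL had only 1 to 22 counts per library, so its values carry wide counting error, whereas HNRNPC had 19 to 431 counts and every other measured member at least 318. Together the 10 IDs took 2.14% ± 0.318 of the counts in medium (SD, n = 11), while the share was 1.15% ± 0.129 in cells and 1.06% ± 0.14 in washed (SD, n = 12 each). The naive libraries held 1.76% and 2.22%. On the principal components of all tested IDs, 4 co-culture libraries stood apart (cells hypoxia no-SPP1 replicate 2, and among the washed SPP1 libraries normoxia replicates 1 and 2 and hypoxia replicate 1), as did 2 medium libraries (replicate 3 of normoxia and replicate 1 of hypoxia, both no-SPP1). Values without them are given where a call changed or a called value moved by over 1.5 times.

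The hnRNPs were first compared between the RAW264.7 co-cultures and medium. HNRNPC was higher in both co-culture forms, HNRNPU, HNRNPD, HNRNPM, HNRNPA2B1 and HNRNPF were lower, and HNRNPK was not called in either. With edgeR's quasi-likelihood test at an adjusted p under 0.05, 48.7% of all tested IDs were called between cells and medium, and 6 of the 9 tested hnRNPs were called (1 higher, 5 lower). Between washed and medium 58.7% of all tested IDs and 7 of the 9 hnRNPs were called (2 higher, 5 lower). Of the 2 higher, HNRNPL passed the filter on low counts only with the help of co-culture libraries. The other, HNRNPC, also the 1 higher in cells, was tested against medium values that led to the choice of the list. Neither call is independent of those choices. The median log2 fold change of the 9 hnRNPs was -0.51 in cells and -0.55 in washed, beside -0.02 and -0.03 over all tested IDs. The share of hnRNPs called in each direction stands beside a background of 23.4% higher and 25.3% lower in cells, and 28.6% and 30.2% in washed.

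**Figure D1:**
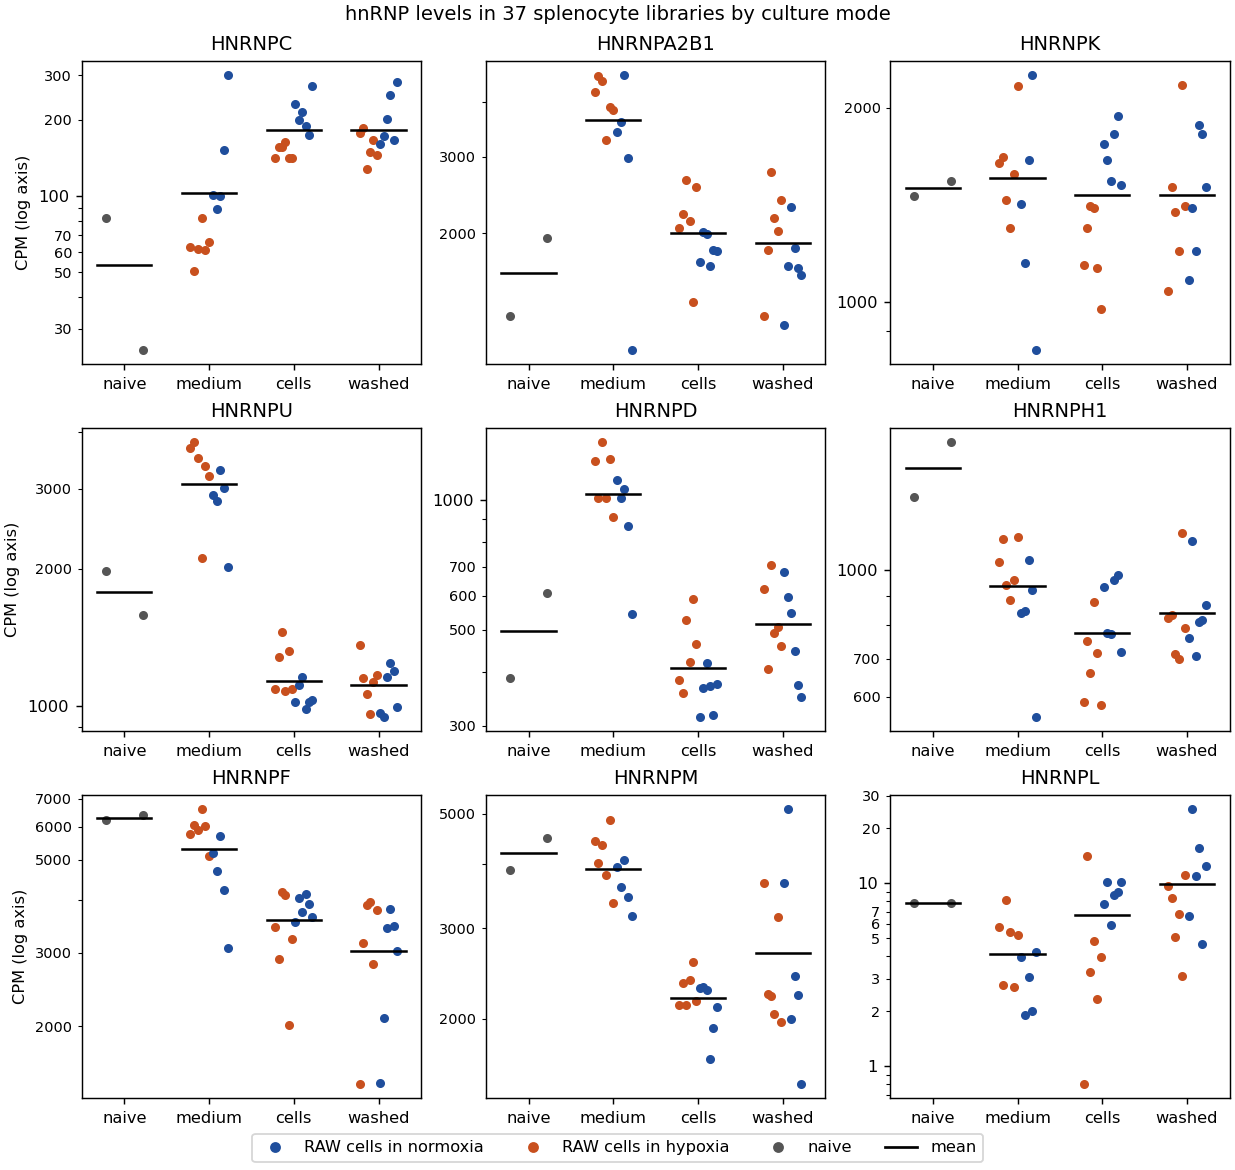
Level of 9 hnRNPs in each of the 37 libraries, in CPM on a log axis, by exposure. Each point is 1 library (blue, RAW cells in normoxia; orange, hypoxia; grey, naive) and each bar the mean; for HNRNPU the 11 medium libraries (2020 to 3800 CPM) lay above all 24 co-culture libraries (944 to 1450 CPM).

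HNRNPC had 50.8 to 301 CPM in the 11 medium libraries (median 81.7), 141 to 272 in cells (median 169) and 128 to 282 in washed (median 170). The overlap came from the 2 medium normoxia no-SPP1 libraries, with 152 and 301 CPM, since the other 9 medium libraries held at most 101 CPM. The difference was 0.88 on the log2 scale in cells (1.84-fold, SE 0.149, adjusted p 8.79e-06) and 0.89 in washed (1.85-fold, SE 0.15, adjusted p 5.18e-06). The order was not the same in every group. In normoxia without SPP1 the means were 227 CPM ± 105 in medium (SD, n = 2), 212 ± 52.2 in cells and 233 ± 59.7 in washed (SD, n = 3 each), with overlapping ranges, whereas in normoxia with SPP1 they were 96.5 ± 6.68, 215 ± 15.1 and 178 ± 20.4 (SD, n = 3 each). The 6 medium hypoxia libraries (50.8 to 81.7 CPM) are those in which a low HNRNPC level led to the choice of the list. The comparison of HNRNPC with medium is therefore not independent of that choice, and its p-values give no separate support for a difference.

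HNRNPU, the chromatin-associated scaffold protein, showed the largest decrease. Its level was 2020 to 3800 CPM in medium (median 3200), 984 to 1450 in cells (median 1090) and 944 to 1360 in washed (median 1140), and the medium range did not overlap either. It was 2.65-fold lower in cells (log2 fold change -1.40, SE 0.101, adjusted p 5.45e-13) and 2.7-fold lower in washed (-1.43, SE 0.101, adjusted p 8.85e-14). Of all tested IDs 2.02% had all cells libraries below all medium libraries, among them HNRNPU and HNRNPM, and 3.62% had all washed libraries below, among them HNRNPU. The 2 medium libraries that stood apart held 2020 and 2110 CPM of HNRNPU, below the other 9 (2820 to 3800 CPM).

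HNRNPD, the AU-rich element binder, had 544 to 1360 CPM in medium (median 1010), 314 to 588 in cells (median 379) and 350 to 707 in washed (median 499). A single medium library, normoxia no-SPP1 replicate 3 at 544 CPM, reached into the co-culture ranges, and the next lowest held 869 CPM. HNRNPD was 2.43-fold lower in cells (log2 fold change -1.28, SE 0.119, adjusted p 7.77e-11) and 1.94-fold lower in washed (-0.96, SE 0.118, adjusted p 1.87e-08).

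HNRNPM, a splicing regulator, had 3160 to 4870 CPM in medium (median 3950), 1670 to 2580 in cells (median 2220) and 1490 to 5110 in washed (median 2230). The cells range lay wholly below medium, whereas the washed range did not. The log2 fold change was -0.82 in cells (SE 0.125, adjusted p 1.75e-06) and -0.55 in washed (SE 0.125, adjusted p 0.000288). The washed value was -0.85 (adjusted p 1.18e-07) without the 4 co-culture libraries that stood apart, a move of over 1.5 times.

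HNRNPA2B1, a splicing silencer protein, had 1080 to 4620 CPM in medium (median 3840), 1390 to 2650 in cells (median 2000) and 1230 to 2770 in washed (median 1840). The library at 1080 CPM was again medium normoxia no-SPP1 replicate 3, and the other medium libraries, at 2980 CPM or more, lay above all co-culture libraries. For HNRNPA2B1 the log2 fold change was -0.75 in cells (SE 0.14, adjusted p 3.44e-05) and -0.83 in washed (SE 0.14, adjusted p 5.18e-06). HNRNPF, a guanine-run binder, had 3070 to 6620 CPM in medium (median 5700), 2010 to 4200 in cells (median 3700) and 1450 to 3960 in washed (median 3290). The same medium library was the lowest for HNRNPF (3070 CPM), and the next held 4240 CPM. Its log2 fold change was -0.51 in cells (SE 0.138, adjusted p 0.00267) and -0.76 in washed (SE 0.139, adjusted p 1.54e-05).

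HNRNPH1, which binds the same guanine runs as HNRNPF, overlapped between the forms, with 553 to 1140 CPM in medium (median 939), 581 to 979 in cells (median 761) and 699 to 1160 in washed (median 814). Its log2 fold changes were -0.24 in cells (SE 0.116, adjusted p 0.0826) and -0.12 in washed (SE 0.116, adjusted p 0.401). The value in cells was called with another scaling (RLE, adjusted p 0.0283), by DESeq2 (adjusted p 0.0203), without medium normoxia no-SPP1 replicate 3 (adjusted p 0.0378), without cells hypoxia no-SPP1 replicate 1 (adjusted p 0.0454) and without both medium libraries that stood apart (-0.36, adjusted p 0.0149). HNRNPK, the cytosine-rich RNA binder, had 842 to 2250 CPM in medium (median 1580), 976 to 1940 in cells (median 1470) and 1040 to 2170 in washed (median 1410). Its log2 fold changes were -0.10 in cells (95% interval -0.37 to 0.16, adjusted p 0.54) and -0.10 in washed (-0.36 to 0.17, adjusted p 0.545). The sign depended on the medium normoxia no-SPP1 pair of libraries, at 2250 and 842 CPM. Without replicate 2 the values were 0.10 and 0.09, and without both medium libraries that stood apart they were -0.29 (adjusted p 0.0493) and -0.30 (adjusted p 0.038).

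HNRNPL, the CA-repeat binder, had 2 to 9 counts per medium library (1.91 to 8.08 CPM, median 3.96), 1 to 17 in cells (0.797 to 14.1 CPM, median 6.82) and 3 to 22 in washed (3.13 to 25.4 CPM, median 8.96). The ranges overlapped. The log2 fold change of 1.26 in washed was called (SE 0.35, adjusted p 0.00232), and that of 0.69 in cells was not (SE 0.359, adjusted p 0.112), although it was without cells hypoxia SPP1 replicate 1 (0.82, adjusted p 0.0448), whose HNRNPL value rests on 1 count. Without cells hypoxia SPP1 replicate 2, which held 17 counts, it was 0.32 (adjusted p 0.493).

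**Figure D2:**
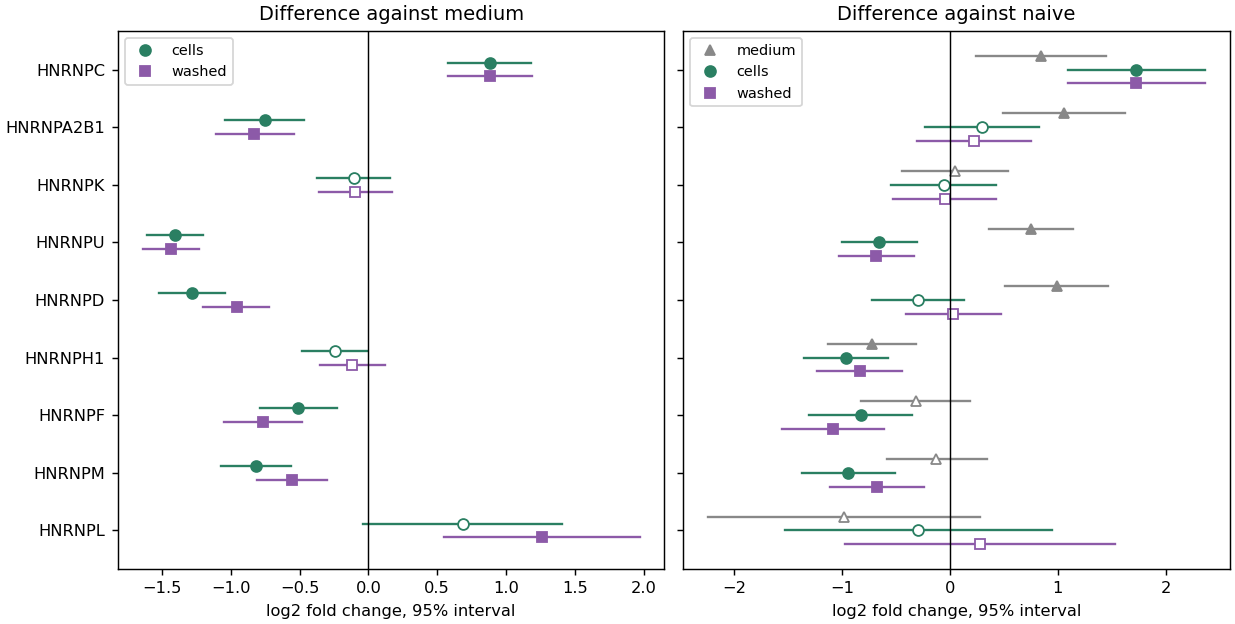
Log2 fold change of 9 hnRNPs with its 95% interval, against medium (left) and against naive splenocytes (right). Filled symbols passed an adjusted p of 0.05 in edgeR's quasi-likelihood test and open symbols did not; HNRNPU lay above naive in medium (0.75) and below naive in cells (-0.65) and washed (-0.68).

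Washing the RAW264.7 cells was the next comparison. Between washed and cells 7.24% of all tested IDs were called and 0 of the 9 hnRNPs. An unadjusted p under 0.05 in edgeR's test was reached by 2 hnRNPs, beside 1240 of the 5193 tested IDs. DESeq2 called 1, HNRNPD (adjusted p 0.0451), beside 569 over all tested IDs. HNRNPD differed by 0.33 (95% interval 0.09 to 0.56, adjusted p 0.0743) and was called, at adjusted p-values of 0.023, 0.0243 and 0.0309, on leaving out cells hypoxia no-SPP1 replicate 2, washed hypoxia SPP1 replicate 2 or washed normoxia SPP1 replicate 3. HNRNPM differed by 0.27 (0.02 to 0.51, adjusted p 0.172), was called without washed normoxia SPP1 replicate 3 (0.36, adjusted p 0.0243) and stood at 0.001 without the 4 co-culture libraries that stood apart. For HNRNPC the difference was 0.005 (-0.28 to 0.29, adjusted p 0.996) and for HNRNPU -0.03 (-0.23 to 0.17, adjusted p 0.896), so these intervals leave out changes of 0.3 or more on the log2 scale in either direction.

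Against the libraries labelled naive, 5 of the 9 hnRNPs were called in each form, where 32.4% (medium), 27.3% (cells) and 34.5% (washed) of all tested IDs were. In medium 4 were higher and 1 lower, in cells and in washed 1 was higher and 4 were lower. The 4 in medium include HNRNPC, whose medium values led to the choice of the list. The background by direction was 17.1% higher and 15.3% lower in medium, 13.9% higher and 13.4% lower in cells, and 17.5% higher and 17.1% lower in washed. These counts rest on 2 naive libraries. Leaving out 1 of them leaves the other alone, with no spread within its group, and fewer hnRNPs were then called in each form. Over all tested IDs the calls against naive also ran lower on leaving out 1 library, so the fall is not particular to the hnRNPs.

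HNRNPC had 82 CPM in naive replicate 1 and 24.7 in replicate 2 (84 and 19 counts), below every cells library (141 CPM or more) and every washed library (128 CPM or more). It was 3.3-fold higher in cells (log2 fold change 1.72, SE 0.313, adjusted p 7.05e-05) and 3.31-fold higher in washed (1.73, SE 0.313, adjusted p 5.37e-05), calls that held without either naive library (adjusted p at most 0.0463). Their sizes moved, to 2.93 and 2.95 without naive replicate 1 and to 1.12 and 1.15 without replicate 2. In medium HNRNPC was higher by 0.84 (SE 0.299, adjusted p 0.0287). That comparison includes the medium values by which the list was chosen, so it is not independent of the choice. The value stood at 0.23 without naive replicate 2, where it was not called, and at 2.05 without replicate 1. It was also not called without medium normoxia no-SPP1 replicate 3 (0.71, adjusted p 0.0578), without both medium libraries that stood apart (0.71, adjusted p 0.0621), with no filter on low counts (0.96, adjusted p 0.0799) or in a fit of the compared groups only (0.74, adjusted p 0.105).

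HNRNPU was on opposite sides of naive in the different forms. The naive libraries held 1980 and 1580 CPM, below all medium libraries (2020 CPM or more) and above all cells and washed libraries (1450 CPM or less). The log2 fold changes were 0.75 in medium (SE 0.195, adjusted p 0.00344), -0.65 in cells (SE 0.173, adjusted p 0.00407) and -0.68 in washed (SE 0.172, adjusted p 0.00218). With no filter on low counts edgeR's test did not call the values in cells (-0.505, adjusted p 0.212) and washed (-0.555, adjusted p 0.131). The medium value was not called without naive replicate 2 (0.58, adjusted p 0.147), and the others were not called without naive replicate 1 (-0.40, adjusted p 0.231, and -0.42, adjusted p 0.19).

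HNRNPD and HNRNPA2B1 were higher than naive in medium only among the called values. HNRNPD held 386 and 610 CPM in the naive libraries, and its log2 fold change in medium was 0.99 (SE 0.234, adjusted p 0.00149). HNRNPA2B1 held 1290 and 1950 CPM, and its value was 1.06 (SE 0.279, adjusted p 0.00403). Neither was called without naive replicate 1 (adjusted p 0.064 and 0.0789). In cells and washed both had values near naive that were not called (HNRNPD -0.30 and 0.03, HNRNPA2B1 0.30 and 0.23), and the direct comparison of the forms is the one against medium above.

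HNRNPH1 was lower than naive in all 3 forms. The naive libraries held 1340 and 1670 CPM, above every other library (1160 CPM or less), and the log2 fold changes were -0.72 in medium (SE 0.201, adjusted p 0.00601), -0.96 in cells (SE 0.195, adjusted p 0.000289) and -0.84 in washed (SE 0.197, adjusted p 0.00112). With no filter on low counts edgeR's test did not call the values in medium (-0.556, adjusted p 0.187) and washed (-0.687, adjusted p 0.0575). Without naive replicate 2 none of the 3 was called (adjusted p 0.169, 0.0508 and 0.105). HNRNPF held 6220 and 6410 CPM in naive and was lower in cells (-0.82, SE 0.236, adjusted p 0.00781) and washed (-1.08, SE 0.231, adjusted p 0.000418). The washed value held without either naive library, and the value in cells did not (adjusted p 0.0773 without replicate 1 and 0.108 without replicate 2). HNRNPM held 3890 and 4490 CPM in naive and was lower in cells (-0.94, SE 0.211, adjusted p 0.000834) and washed (-0.68, SE 0.215, adjusted p 0.0139). The first was not called without naive replicate 2 (adjusted p 0.0604), and the second was not called without naive replicate 1 (0.0773) or replicate 2 (0.228). By edgeR the washed HNRNPM value was also not called with no filter on low counts (-0.538, adjusted p 0.113) or in a fit of the compared groups only (-0.704, adjusted p 0.0764). The ranges did not overlap with naive for 2 of the 9 hnRNPs in medium, 5 in cells and 4 in washed, where 29.8%, 27.7% and 26.9% of all tested IDs had such ranges.

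Oxygen during the RAW264.7 culture was examined next. In medium, the contrast by which HNRNPC was chosen, HNRNPC had a log2 fold change of -1.21 between hypoxia and normoxia, while the other 8 measured hnRNPs had positive values (0.15 for HNRNPK to 0.69 for HNRNPL, with HNRNPA2B1 at 0.52, HNRNPF at 0.44, HNRNPD at 0.38, HNRNPH1 at 0.31, HNRNPU at 0.24 and HNRNPM at 0.21). In that contrast 0.077% of all tested IDs were called. All 6 hypoxia libraries lay below all 5 normoxia libraries for HNRNPC, as for 0.558% of all tested IDs. Of medium normoxia no-SPP1, the 2 libraries differed for HNRNPC (152 and 301 CPM) and HNRNPK (2250 and 842 CPM). Leaving out one or the other of them moved most values. Without replicate 3 HNRNPC had -0.91, HNRNPA2B1 0.26, HNRNPD 0.24, HNRNPH1 0.16, HNRNPU 0.13 and HNRNPK -0.11. Without replicate 2 HNRNPA2B1 had 1.00, HNRNPK 0.60, HNRNPD 0.58, HNRNPH1 0.53 and HNRNPU 0.42. HNRNPM had 0.13 without medium hypoxia no-SPP1 replicate 2, and HNRNPK had 0.02 without replicate 3 of that group. Without the 2 medium libraries that stood apart HNRNPC had -0.96, HNRNPA2B1 0.31 and HNRNPK -0.02.

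**Figure D3:**
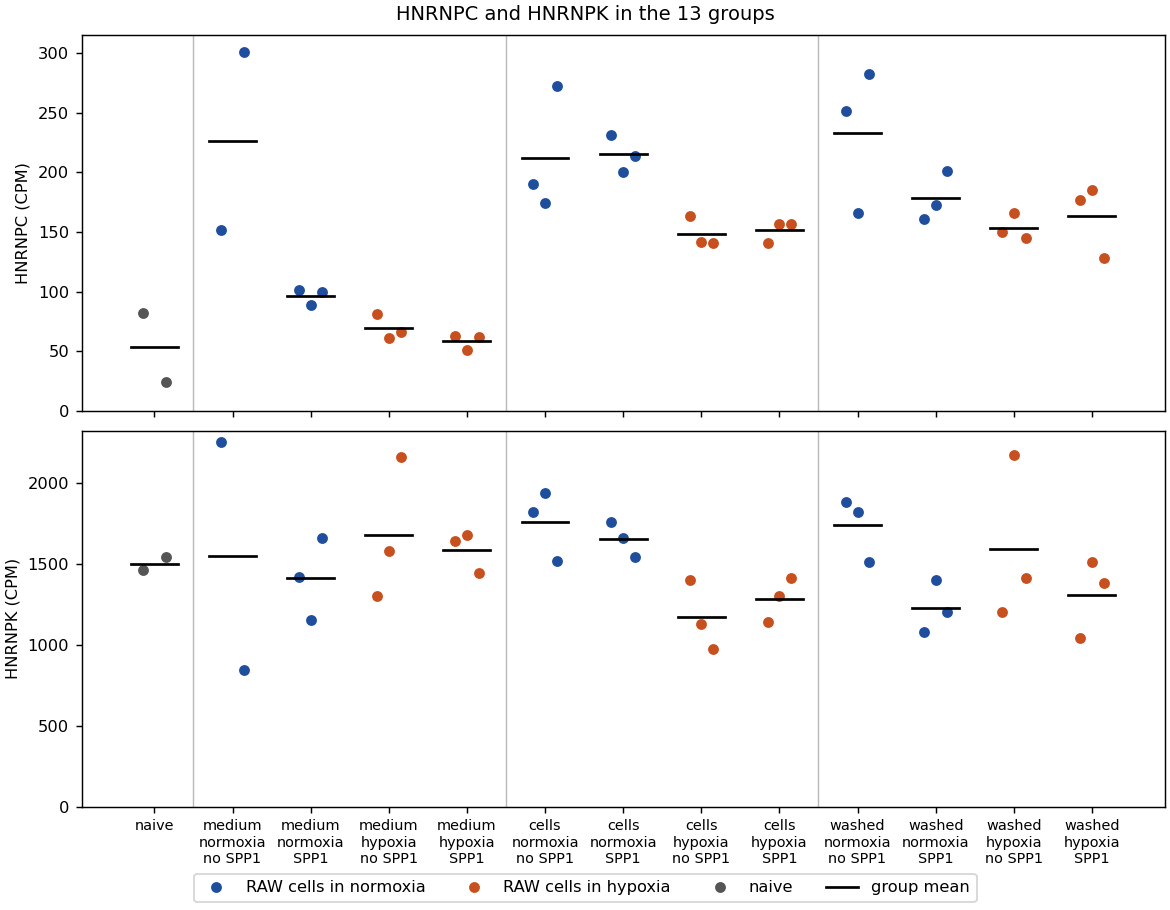
HNRNPC (top) and HNRNPK (bottom) in CPM in the 13 groups. Points are libraries (blue, RAW cells in normoxia; orange, hypoxia; grey, naive) and bars the group means; in the cells groups both genes had all 6 hypoxia libraries below all 6 normoxia libraries (HNRNPC 141 to 163 against 174 to 272 CPM).

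The cells and washed libraries did not enter that contrast, and the same contrast was tested in them. The list and its comparisons were chosen with earlier results of these data known, so these tests are not independent of the data. In cells HNRNPC had 141, 142 and 163 CPM (hypoxia without SPP1), 141, 157 and 157 (hypoxia with SPP1), 174, 190 and 272 (normoxia without SPP1) and 200, 214 and 231 (normoxia with SPP1). All 6 hypoxia libraries lay below all 6 normoxia libraries. The log2 fold change was -0.51 (95% interval -0.91 to -0.10, unadjusted p 0.0157 by edgeR's quasi-likelihood test), and at an adjusted p of 0.161 it did not pass over all tested IDs. In washed HNRNPC had 145, 150 and 166 CPM (hypoxia without SPP1), 128, 177 and 185 (hypoxia with SPP1), 166, 251 and 282 (normoxia without SPP1) and 161, 173 and 201 (normoxia with SPP1). These ranges overlapped, and the log2 fold change was -0.36 (-0.77 to 0.04, unadjusted p 0.0786, adjusted p 0.668). Neither difference passed the test. Adjusted p-values ran from 0.0658 to 0.651 in cells and from 0.385 to 1 in washed over the alternative settings.

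HNRNPK had 976, 1130 and 1400 CPM (hypoxia without SPP1) and 1140, 1300 and 1410 (hypoxia with SPP1) in cells, against 1520, 1820 and 1940 (normoxia without SPP1) and 1540, 1660 and 1760 (normoxia with SPP1). The ranges did not overlap, and the log2 fold change was -0.48 (95% interval -0.85 to -0.11, adjusted p 0.138). It was called, at an adjusted p of 0.0485, when only the cells libraries were fitted. In cells 3.62% of all tested IDs were called for hypoxia, among them 0 of the 9 hnRNPs. All hypoxia libraries lay below all normoxia libraries for 2.18% of all tested IDs, among them 2 of the 9 hnRNPs. By edgeR 3 hnRNPs had an unadjusted p under 0.05, beside 928 of the 5193 tested IDs, and DESeq2 called 0 hnRNPs, beside 290 IDs. In washed 0.0385% of all tested IDs and 0 of the 9 hnRNPs were called. An unadjusted p under 0.05 by edgeR was reached by 0 hnRNPs, beside 426 tested IDs, and DESeq2 called 0 hnRNPs, beside 1 ID. HNRNPK had 1040 to 2170 CPM there after hypoxia and 1080 to 1880 after normoxia. The difference between the hypoxia effects in cells and washed was -0.46 for HNRNPK (95% interval -0.98 to 0.05, adjusted p 0.748) and -0.14 for HNRNPC (-0.72 to 0.43, adjusted p 0.968). For such a difference 0.173% of all tested IDs and 0 hnRNPs were called. DESeq2 called 0 hnRNPs, beside 32 IDs. By edgeR 0 hnRNPs had an unadjusted p under 0.05, beside 366 tested IDs.

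SPP1 in the RAW264.7 culture was the last factor. It gave 0 called hnRNPs in medium, cells and washed in edgeR's test, against a background of 0.25%, 0% and 0.0193% of all tested IDs. Unadjusted p-values under 0.05 by edgeR were reached by 4, 0 and 4 hnRNPs, beside 478, 87 and 527 of the 5193 tested IDs. DESeq2 called 1, 0 and 0 hnRNPs, beside 34 IDs in medium and 11 in washed. In medium HNRNPC had 61.6, 66.1 and 81.7 CPM (hypoxia) and 152 and 301 CPM (normoxia) without SPP1, and 50.8, 62 and 62.9 (hypoxia) and 88.8, 100 and 101 (normoxia) with it. The SPP1 ranges overlapped, and the log2 fold change was -0.74 (SE 0.216, adjusted p 0.201). DESeq2 gave an adjusted p of 0.0492. This comparison uses the medium values by which the list was chosen, so neither test is independent of that choice. Without medium normoxia no-SPP1 replicate 2 the value was -0.94 (adjusted p 0.0315), and without the 2 medium libraries that stood apart it was -0.37 (adjusted p 0.977). HNRNPA2B1 in medium had 1080 to 3900 CPM without SPP1 and 3410 to 4620 with it, which differed by 0.60 on the log2 scale (SE 0.206, adjusted p 0.347). It was called without medium normoxia no-SPP1 replicate 2 (1.07, adjusted p 0.0102), which left that group with the 1080 CPM library alone, assumed to vary like the other groups. Without the 2 medium libraries that stood apart it was 0.31 (adjusted p 0.977).

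In washed HNRNPM had 1490 to 3150 CPM without SPP1 (median 2130) and 2000 to 5110 with it (median 2950), which differed by 0.50 on the log2 scale (SE 0.172, adjusted p 0.323). Its 3 highest libraries with SPP1 (3670, 3670 and 5110 CPM) were those that stood apart, and without these and the cells library the value was -0.04. Without washed normoxia SPP1 replicate 3 it was 0.67 (adjusted p 0.0199). HNRNPD in washed had 350 to 507 CPM without SPP1 and 407 to 707 with it, which differed by 0.45 on the log2 scale (SE 0.163, adjusted p 0.341). For differences of the SPP1 effect between cells and medium or washed, 0% of all tested IDs and 0 hnRNPs were called by edgeR. DESeq2 called 0 hnRNPs in each, beside 3 IDs in the difference between cells and washed. By edgeR 1 hnRNP had an unadjusted p under 0.05 in each, beside 255 (medium) and 391 (washed) tested IDs.

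Over all 13 groups HNRNPC had its highest mean in washed normoxia no-SPP1 (233 CPM ± 59.7, SD, n = 3) and its lowest in naive (53.4 ± 40.5, n = 2), a ratio of 4.36. The order below the top was medium normoxia no-SPP1 (227 ± 105, n = 2), cells normoxia SPP1 (215 ± 15.1, n = 3), cells normoxia no-SPP1 (212 ± 52.2), washed normoxia SPP1 (178 ± 20.4) and washed hypoxia SPP1 (164 ± 30.8). Then came washed hypoxia no-SPP1 (154 ± 10.9), cells hypoxia SPP1 (152 ± 9.39), cells hypoxia no-SPP1 (149 ± 12.8), medium normoxia SPP1 (96.5 ± 6.68), medium hypoxia no-SPP1 (69.8 ± 10.6) and medium hypoxia SPP1 (58.6 ± 6.71, n = 3 each). Neighbouring groups overlapped in 10 of 12 steps, and the ranges parted only around medium normoxia SPP1. For HNRNPA2B1, HNRNPU, HNRNPD and HNRNPM the highest mean was in medium hypoxia SPP1 (4430, 3660, 1200 and 4270 CPM). For HNRNPH1 and HNRNPF it was in naive (1500 and 6320 CPM). HNRNPK varied least among the 9, from 1170 CPM in cells hypoxia no-SPP1 to 1760 in cells normoxia no-SPP1, a ratio of 1.5 with every neighbouring pair overlapping.

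Across the 37 libraries HNRNPC ran opposite to most other members on the log2 CPM scale. Pearson's r with HNRNPC was -0.674 for HNRNPU, -0.672 for HNRNPM, -0.669 for HNRNPD, -0.625 for HNRNPF, -0.616 for HNRNPH1 and -0.612 for HNRNPA2B1, but -0.126 for HNRNPK and 0.307 for HNRNPL. The closest pair was HNRNPU and HNRNPD (r = 0.845). These points share libraries and exposure forms, and much of the relation lay between groups. They include the medium hypoxia libraries, whose low HNRNPC led to the choice of the list, so the relation is not independent of it. With the total count of a library, r was 0.483 for HNRNPC and from -0.48 (HNRNPH1) to 0.123 (HNRNPK) for the other members. After each group's mean was subtracted, r of HNRNPC with HNRNPU was -0.063 and with HNRNPM -0.123, while it was -0.489 with HNRNPD and -0.468 with HNRNPA2B1. Within groups the closest pairs were HNRNPK with HNRNPH1 (0.79) and HNRNPA2B1 with HNRNPF (0.743), and the most opposed was HNRNPF with HNRNPM (-0.52). The tested IDs most like HNRNPC over the 37 libraries, of 5184 ranked, were ENSG00000221914.11 (r = 0.942) and ENSG00000213371.4 (r = 0.912), whose means were 137 and 58.1 CPM in naive, 184 and 136 in medium, 256 and 202 in cells and 250 and 187 in washed.

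**Figure D4:**
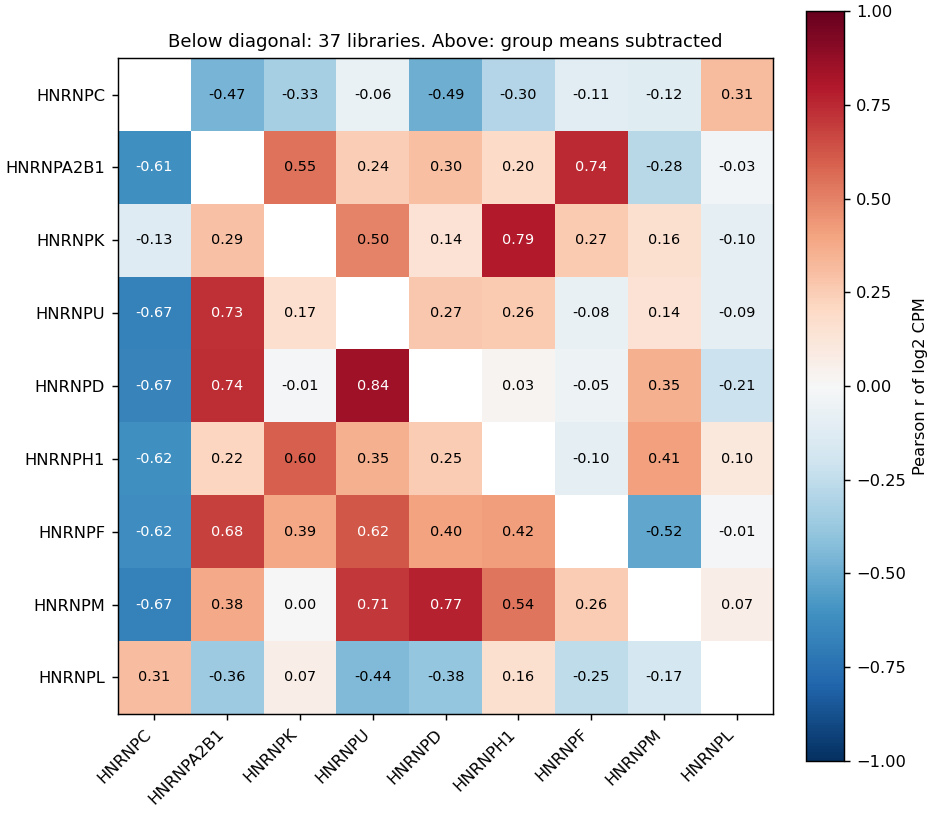
Pearson's r of log2 CPM between 9 hnRNPs. Below the diagonal all 37 libraries are used, above it each group's mean was subtracted first; HNRNPU and HNRNPD had 0.845 over all libraries and HNRNPK and HNRNPH1 0.79 within groups.

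The members also differed in how they behaved in the 4 co-culture libraries that stood apart. HNRNPF held 1450 to 2090 CPM there, below all other 20 co-culture libraries (2820 to 4200), and HNRNPA2B1 held 1230 to 1680 CPM against 1610 to 2770. HNRNPM held 2580 to 5110 CPM against 1490 to 3150, and HNRNPD had a median of 609 CPM against 413. HNRNPC (142 to 177 CPM against 128 to 282), HNRNPU (944 to 1360 against 959 to 1450) and HNRNPH1 (717 to 1120 against 581 to 1160) lay within or near the range of the others. The 4 libraries were picked on principal components of the same data, so these differences are not independent of that choice. The share of all tested IDs with such a gap was not computed. Detected IDs numbered 7102 (hypoxia replicate 1), 8008 (normoxia replicate 1) and 9132 (normoxia replicate 2) in washed SPP1 libraries, and 8632 in cells. Total counts in the same order were 761571, 691539, 962194 and 979573 (medians over all libraries 9224 IDs and 1063211 counts). What set these libraries apart was not tested, and RNA integrity per library was not analysed here.

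**Figure D5:**
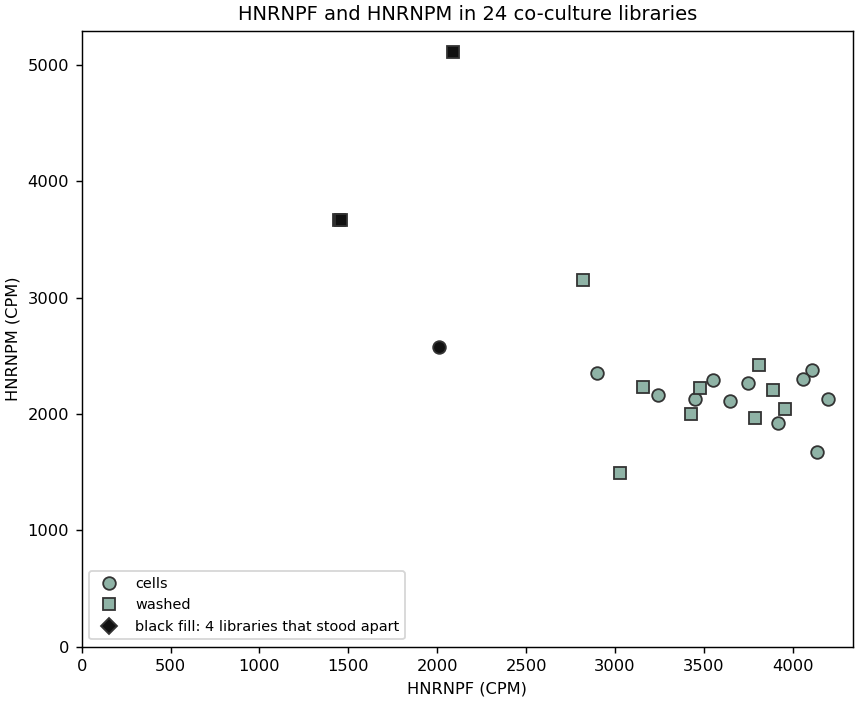
HNRNPF against HNRNPM in CPM in the 24 co-culture libraries (circles, cells; squares, washed). The 4 libraries that stood apart are in black (2 of them nearly coincide), at 1450 to 2090 CPM of HNRNPF and 2580 to 5110 CPM of HNRNPM.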

How the data were processed

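Counts were analysed for 37 libraries of mouse splenocytes, grouped by the treatment label of each sample, with replicate numbers from the titles. The authors deposited raw counts per gene. Per the series text, reads of a QuantSeq 3′ kit were trimmed with bbduk, aligned to GRCh38 (hg38 in the submitters' processing notes) with STAR 2.7.10b and counted with featureCounts of Rsubread 2.0.3. The annotation release, the handling of multiply aligned reads and the use of the unique molecular identifiers were not given in the sources used here, so counts may include PCR copies, and limits of counts cover counting error only. The labels ask for a minimum RNA integrity while quoting a range below it.

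IDs were kept by filterByExpr (minimum count 10), which held 97.8% to 99.4% of each library's counts. A quasi-likelihood model with a mean per group was fitted to all libraries (edgeR 4.0.16, R 4.3.3, TMM scaling), contrasts averaged over the other factors with equal weight were tested with Benjamini-Hochberg adjustment over all tested IDs, and "called" means an adjusted p under 0.05. CPM was taken over library sizes after TMM scaling, with a prior count of 2 for log2 values. DESeq2 1.42.0, RLE scaling, no filter, fits of the compared groups only, the replicate number as a block and leaving out libraries were the alternatives. The model was tested on simulated data. The hnRNP list, its comparisons and the sets of libraries that stood apart were chosen with earlier results of these data known. Named genes are the 10 listed hnRNPs and the 2 IDs most correlated with HNRNPC. Human gene symbols came from the list, since the files do not pair IDs with names and only mouse gene names were at hand, so planned lists of other hnRNPs and of cell type markers were not used. In none of 35 pairs of replicates did counts agree within sampling noise (chi-square per degree of freedom 2.86 to 44.2).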

Additional observations from a re-analysis of the deposited data

Results flagged for a closer look

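Within arms of 5 or 6 libraries (an exposure form at 1 oxygen level or 1 SPP1 state), 8 of 108 sets of hnRNP values had a library set off from its arm by Dixon's criterion, which chance alone gives in about 1 in 20. HNRNPU was low in medium hypoxia no-SPP1 replicate 1, at 2110 CPM beside 3200 CPM or more in the other 5 medium hypoxia libraries. It was high in cells hypoxia no-SPP1 replicate 2, at 1320 CPM beside at most 1090 in the other cells libraries without SPP1. Both libraries are among those that stood apart.

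HNRNPH1 was high in washed hypoxia no-SPP1 replicate 2, at 1160 CPM, beside at most 834 in the other washed hypoxia libraries and at most 869 in the other washed libraries without SPP1. It was also high in washed normoxia SPP1 replicate 2, at 1120 CPM beside at most 834 in the other washed libraries with SPP1. In that same library HNRNPL was high, at 25.4 CPM beside at most 10.9, which corresponds to 22 counts. HNRNPL was further high in cells hypoxia SPP1 replicate 2, at 14.1 CPM beside at most 4.81 (17 counts). HNRNPC was high in cells normoxia no-SPP1 replicate 3, at 272 CPM beside at most 190 in the other cells libraries without SPP1.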

How the results depend on the processing

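Over 30 alternatives each, the 6 hnRNPs called between cells and medium and the 7 called between washed and medium kept their direction and their call. In all, 6 to 8 and 7 to 8 hnRNPs were called, beside 2152 to 2748 and 2867 to 3215 of all tested IDs. These include HNRNPC, and in washed HNRNPL, whose calls are not independent of the choice of the list or of the filter. That their calls held is therefore no added support. Among the other counts of called hnRNPs, no filter on low counts gave 3 against naive in medium and 2 in washed (5 each with the filter), DESeq2 gave 1 between washed and cells and 1 for SPP1 in medium (0 each by edgeR), and a fit of the compared groups only gave 1 for hypoxia in cells (0 with all groups). On leaving out 1 library the counts of hnRNPs ran from 0 to 2 between washed and cells, beside 227 to 753 over all tested IDs. For SPP1 in washed they ran from 0 to 1, beside 0 to 172. Against naive and for SPP1 in medium they changed where a group of 2 libraries was left with 1. The cause was not tested. Signs turned for HNRNPK against medium (-0.217 to 0.097 in cells and -0.2 to 0.089 in washed on leaving out 1 library). Between washed and cells they turned for HNRNPC (-0.014 with no filter, -0.016 to 0.069 on leaving out 1 library) and HNRNPU (0.016 without the 4 co-culture libraries that stood apart, -0.054 to 0.02 on leaving out 1 library). Without those 4 libraries they also turned for HNRNPM with SPP1 in washed (-0.042) and for the HNRNPC hypoxia effect in cells minus washed (0.005).

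Replicate numbers showed no common pairing of the libraries. Deviations from the group means had a median correlation of 0.00441 over 187 same-numbered pairs (-0.477 to 0.53) and 0.000666 over 374 others (-0.51 to 0.486). Whether some libraries shared a mouse or day cannot be told from these values. With the replicate number as a block no call of an hnRNP changed, and over all tested IDs 0 were called for SPP1 in washed and 0 for hypoxia in washed (1 and 2 without the block). Counts over all tested IDs moved by over 1.5 times between washed and cells (376, but 202 without the 4 co-culture libraries and 569 by DESeq2), for hypoxia in cells (188, over a range of 87 to 293), for SPP1 in medium (13, 0 to 73), SPP1 in washed (1, 0 to 172), SPP1 in cells (0, 0 to 6) and hypoxia in washed (2, 0 to 19), and for the differences of effects (9, 2 to 52 for hypoxia, 0, 0 to 9 and 0, 0 to 17 for SPP1). Against naive they were 1682, 1418 and 1793, with lowest values of 551, 452 and 684. At 19 to 431 counts for HNRNPC and 1 to 22 for HNRNPL, depth limits these more than the other members.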
